A study of Mus musculus with 9 samples.

Results

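The 200 probes described here are the most variable circRNA probes of moderate abundance on a mouse circRNA microarray. All 14236 circRNA probes were ranked on their mean level over 9 arrays, the 300 brightest were set aside, and among the next 2700 (down to rank 3000) the members were chosen by the largest standard deviation (SD) over the arrays, without regard to group. A level is the log2 processed signal of a spot minus the 75th percentile of all circRNA probes on the same array, and a difference of 1 on this scale is a 2-fold difference. Since the probes were selected on their SD and mean level, both are given as description only.

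The arrays came from intestinal tumours of mice in 3 groups, CTR, HFD and HFD+Abx, with 3 arrays each. HFD is a high-fat diet according to the design text of the series, and the labels leave Abx unexplained. They also do not give the diet of CTR mice, strain, sex, age, how the tumours arose, or whether each array is a separate animal. The p-values below thus measure the spread between these samples, which may in part be technical. RNA of every group was treated with RNase R, which digests linear RNA, before random-primed labelling with Cy3. Slide was read from the scan identifier in the file headers, which places HFD+Abx 2 and 3 on slide 2 and the other 7 arrays on slide 1. The first number of the position code in the headers was taken as the column, which is an assumption. Read in this way, CTR 1 to 3 and HFD 1 lie in column 1 and the other 5 arrays in column 2.

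Circular RNAs are made when the spliceosome joins the end of an exon back to the start of the same or an earlier exon. The closed loop has no free end, so exonucleases degrade it slowly and it can accumulate in cells that divide seldom. A circRNA array probe is placed across the back-splice junction, since the rest of the loop has the same sequence as the linear transcript of its host gene. In bulk tissue, fewer cells of a type and less RNA per cell cannot be told apart. The files hold array IDs without host gene, position or sequence, so the circRNAs are named by ID and no sequence is shown. None of 19 marker genes of intestinal epithelium, immune cells, stroma, vessels and fat had a probe on the array, so the labelled tissue was not checked.

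All 200 probes were well above background on all 9 arrays and none was saturated. Their mean levels ran from 0.38 to 4.26 with a median of 1.63, against a median of 1.34 for the 2500 probes of the same ranks that were not chosen. Their SD ran from 0.55 to 1.47 with a median of 0.70, against a median of 0.25 for the probes not chosen. The highest and the lowest array of a probe lay 2.38-fold to 21.5-fold apart, with a median of 4.37-fold, and 46 of the 200 spanned at least 8-fold. At the edge of the choice, ASCRP4007960 (SD 0.552) and ASCRP4012761 (SD 0.552) were taken, and ASCRP4011876 (SD 0.551) and ASCRP4007334 (SD 0.550) were not, so the limit separates no distinct set. Of the probes outside the ranks, 42 of the 300 brightest and 1046 of the 11236 dimmer ones varied at least as much.

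The probe with the largest SD was ASCRP4001328. Its levels were 2.88, -0.20 and 3.13 on CTR 1 to 3, 2.46, 1.44 and 0.43 on HFD 1 to 3, and 0.52, -1.03 and 0.09 on HFD+Abx 1 to 3. It was high on CTR 1, CTR 3 and HFD 1 and low on CTR 2, and the CTR arrays overlapped with those of both other groups. Its lowest reading was on HFD+Abx 2. ASCRP4001141 had nearly the same profile, at 2.77, -0.41 and 3.08 in CTR, 2.44, 1.22 and 0.41 in HFD and 0.34, -0.78 and 0.51 in HFD+Abx. ASCRP4000169 followed the same course, with 5.93, 2.96 and 5.89 in CTR, 5.23, 4.38 and 3.63 in HFD and 3.44, 2.07 and 2.91 in HFD+Abx. ASCRP4008179, the fifth by SD, again had CTR 1 (2.37) and CTR 3 (2.31) at the top and HFD+Abx 2 (-1.46) at the bottom. The remaining probe of the top 5, ASCRP4010230, took another course. Its levels were 0.54, -0.13 and 1.39 in CTR, 1.47, -0.78 and 1.95 in HFD and 3.64, 1.67 and -0.43 in HFD+Abx. Its highest and its next to lowest readings thus came from HFD+Abx arrays, and its lowest, 21.5-fold below the highest, from HFD 2.

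These courses recurred across the 200 probes. Average-linkage clustering on the correlation of profiles gave 4 patterns, with 114, 65, 14 and 7 probes. The patterns were built from the same values and are a description, as are the correlations below, each taken over the same 9 arrays. Values in the next paragraphs are deviations of a probe from its own mean over the arrays, averaged over the probes of a pattern, with the SD over those probes.

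In the pattern of 114 probes, HFD+Abx 1 stood above all other arrays on average, at 1.16 ± 0.81, and was highest for 59 of them. The pattern joins sets of probes with different courses, given below, which lay on opposite sides of the mean on CTR 2. HFD 3 (0.48 ± 0.33) and HFD+Abx 2 (0.37 ± 0.46) lay above the mean, CTR 2 (0.0085 ± 0.59) and HFD 1 (-0.044 ± 0.35) near it, and CTR 1 (-0.27 ± 0.42) and CTR 3 (-0.28 ± 0.47) below. HFD 2 (-0.74 ± 0.50) and HFD+Abx 3 (-0.68 ± 0.44) were lowest. Of the 114, 111 were above their own mean on HFD+Abx 1, and only 3 were above it on HFD 2 and 8 on HFD+Abx 3. The array that was highest and an array that was lowest thus came from the same group. By group the pattern averaged -0.18 ± 0.16 in CTR, -0.10 ± 0.61 in HFD and 0.28 ± 0.93 in HFD+Abx (SD over n = 3 arrays), and the groups overlapped. ASCRP4011761 was closest to the mean of the pattern, with 2.20, 2.49 and 2.25 in CTR, 2.31, 1.99 and 2.82 in HFD and 3.73, 2.54 and 1.69 in HFD+Abx. ASCRP4011267 was next, with 2.29 on HFD+Abx 1 and between -0.07 and 0.87 on the other 8 arrays.

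In the pattern of 65 probes, CTR 1 (1.06 ± 0.45), HFD 1 (0.67 ± 0.38) and CTR 3 (0.58 ± 0.74) were high. HFD+Abx 2 (-0.87 ± 0.50), HFD 3 (-0.55 ± 0.58), HFD+Abx 1 (-0.41 ± 0.34) and HFD+Abx 3 (-0.36 ± 0.71) were low. HFD 2 (0.11 ± 0.42) and CTR 2 (-0.23 ± 0.56) lay between. All 65 were above their own mean on CTR 1 and on HFD 1. By group the pattern averaged 0.47 ± 0.65 in CTR, 0.076 ± 0.61 in HFD and -0.55 ± 0.28 in HFD+Abx (SD, n = 3 arrays). CTR 2 (-0.23) and HFD 3 (-0.55) reached into the neighbouring ranges. On this average each HFD+Abx array lay below each CTR array, but the pattern joins sets of probes with different courses, given below. In a set of 22 of them CTR 2 was at -0.89, below HFD+Abx 1 (-0.50) and HFD+Abx 3 (-0.71). The 3 high arrays all lie in position column 1, and CTR 2, the other array of that column, did not share their level. ASCRP4011980 was closest to the mean of this pattern, with 3.03, 0.56 and 3.20 in CTR, 2.79, 1.80 and 0.83 in HFD and 0.94, -0.12 and 0.87 in HFD+Abx, and ASCRP4000169 was next.

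The pattern of 14 probes was lowest on CTR 2 (-0.83 ± 0.25) and highest on HFD 2 (0.71 ± 0.83) and HFD+Abx 3 (0.58 ± 0.67). The order of these arrays rests on ASCRP4001365, whose spot on HFD 2 was flagged by the scanner software: over the other 13 probes HFD 2 was at 0.54 and HFD+Abx 3 at 0.65. HFD+Abx 3 was also the higher under quantile normalisation, equal medians and normexp, but these too used only the 13 probes without a flagged spot. In the authors' deposited table, which held all 14, HFD+Abx 3 was at 0.60 and HFD 2 at 0.55. All 14 were below their own mean on CTR 2. It averaged -0.46 ± 0.33 in CTR, 0.33 ± 0.39 in HFD and 0.13 ± 0.41 in HFD+Abx (SD, n = 3 arrays). ASCRP4007776, closest to its mean, read 1.05, 0.43 and 0.99 in CTR, 0.96, 2.02 and 1.94 in HFD and 0.73, 0.89 and 1.81 in HFD+Abx, so HFD 1 lay with the CTR arrays. ASCRP4004313 read 2.22, 2.40 and 2.88 in CTR, 3.19, 3.88 and 3.44 in HFD and 2.83, 3.38 and 3.95 in HFD+Abx, with no overlap between CTR and HFD.

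The pattern of 7 probes was high on HFD 1 (0.78 ± 0.26), HFD 2 (0.69 ± 0.17), CTR 2 (0.48 ± 0.23) and CTR 3 (0.46 ± 0.14). It was low on HFD+Abx 1 (-0.67 ± 0.32), HFD+Abx 3 (-0.66 ± 0.35), HFD 3 (-0.55 ± 0.35) and CTR 1 (-0.41 ± 0.32). ASCRP4007845 showed it with 2.32, 3.37 and 3.19 in CTR, 3.38, 3.44 and 2.06 in HFD and 2.01, 2.94 and 2.16 in HFD+Abx. ASCRP4012566 had its 4 lowest readings on the same 4 arrays, from 1.19 on HFD+Abx 1 to 1.83 on CTR 1. In this pattern each group held at least 1 array of the high and 1 of the low side, apart from HFD+Abx, whose remaining array, HFD+Abx 2, lay at -0.12.

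Within the patterns, sets of probes ran almost in parallel. Of the 200, 168 had at least 1 partner among the 200 whose profile correlated with theirs at r over 0.95, and 89 had a partner at r over 0.99. Over all pairs 5.77% exceeded 0.95, against 0.36% of pairs among the 2500 probes of the same ranks that were not chosen. A probe that varies little is more affected by noise, so these shares are not of like probes. Linking probes at r over 0.95, a grouping chosen after the profiles were seen, placed 162 probes in 7 families of 4 or more and left 32 unlinked. The closest pair, both of the pattern of 14, had r = 0.999. ASCRP4003165 read 1.38, 0.31 and 0.995 in CTR, 1.20, 1.37 and 0.85 in HFD and 1.02, 1.03 and 2.44 in HFD+Abx. ASCRP4001233 read 1.501, 0.45 and 1.13 in CTR, 1.29, 1.48 and 0.96 in HFD and 1.12, 1.18 and 2.53 in HFD+Abx. Both stood highest on HFD+Abx 3 and lowest on CTR 2.

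In the family of 57 probes, all 57 were highest on HFD+Abx 1 and 53 were lowest on HFD 2. The family deviated by 1.91 ± 0.38 on HFD+Abx 1 and by -1.11 ± 0.42 on HFD 2 (SD over probes), and HFD+Abx 3 followed at -0.73 ± 0.34. The span between a probe's highest and lowest array was 8.41-fold at the median. The median pairwise r was 0.946 over the 9 arrays and 0.896 without HFD+Abx 1. The family was linked on these same values, so both are a description. The 57 spots lay between rows 3 and 192 and columns 1 and 81 of a grid of 192 rows and 82 columns, and their mean levels between 0.41 and 3.36.

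The next family, of 50 probes, was looser (median r = 0.778, lowest -0.48). It was highest on HFD 3 (0.64 ± 0.30) and CTR 2 (0.56 ± 0.18) and lowest on CTR 3 (-0.70 ± 0.22) and HFD+Abx 3 (-0.60 ± 0.52). All probes of this family and of the family of 57 belong to the pattern of 114. On CTR 2 the family of 57 was at -0.53 ± 0.28, and on HFD+Abx 1 the family of 50 was at 0.41 ± 0.18. A family of 22 (median r = 0.964) held ASCRP4001328, ASCRP4001141, ASCRP4000169 and ASCRP4008179, with 1.32 ± 0.48 on CTR 3, 1.18 ± 0.44 on CTR 1, 0.95 ± 0.31 on HFD 1 and -0.89 ± 0.35 on CTR 2. A family of 18 (median r = 0.904) was highest on CTR 1 (1.21 ± 0.48) and lowest on HFD 3 (-1.24 ± 0.30), with all 18 at their lowest on HFD 3. In each of these 4 families the highest or the lowest array was parted from another array of its own group by more than 1 log2 unit.

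Probes that the rule could not take carried some of the same courses. The arrays hold 94 other probes with 10 spots each, and the SD of the 10 spots within an array was 0.036 at the median for the 33 of them in the same range of mean level. The SD of those 33 over the 9 arrays had a median of 0.30, and 3 of them reached 0.55. The 3 custom and 1 negative probes named next were chosen after their values were seen, as the closest of the 94 to a family or as the most variable. CUST_13_PI419532418 correlated with the family of 57 at r = 0.969 over the 9 arrays. It read 1.94, 2.17 and 2.24 in CTR, 2.10, 1.59 and 2.50 in HFD and 3.34, 2.32 and 1.66 in HFD+Abx, so HFD+Abx 1 was highest and HFD 2 and HFD+Abx 3 lowest, with a median SD of 0.042 over its 10 spots. CUST_12_PI419532418 correlated at r = 0.993 with a family of 7 probes of the second pattern. Its levels were 5.01, 3.80 and 4.69 in CTR, 4.04, 3.38 and 3.92 in HFD and 3.72, 2.56 and 3.06 in HFD+Abx, with 0.081 as the median SD over spots. CUST_11_PI419532418 ran against the second pattern (r = -0.944), at 1.90, 3.35 and 1.96 in CTR, 2.12, 2.39 and 3.08 in HFD and 3.05, 3.85 and 3.15 in HFD+Abx. What the custom probes detect is unknown here. MM9NEGATIVE017, a probe named as negative that was well above background on all 9 arrays, correlated at r = 0.940 with the family of 18. Its course was smaller, from -0.66 on HFD 3 to 0.20 on CTR 1, and the part of unspecific signal in that family was not tested.

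Among the mRNA probes, Pex11a, which encodes a peroxisome division factor, was the closest to the second pattern (r = 0.895), at 3.28, 2.88 and 3.20 in CTR, 3.08, 2.85 and 2.87 in HFD and 2.79, 2.36 and 2.56 in HFD+Abx. Actb, the gene of cytoplasmic beta-actin, ran against the first pattern (r = -0.879), with 1.1 on HFD 2 and 0.98 on HFD+Abx 3 and -0.19 on HFD+Abx 1. Both were likewise picked after their values were seen, and the signal of a linear transcript here is what remained after RNase R.

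Measures of the arrays as a whole moved in part with the first pattern. The median spot signal was 3.88 times its local background on HFD 2 and 4 times on HFD+Abx 3, the 2 arrays where the pattern was lowest, and 4.60 times on HFD+Abx 1, where it was highest. The other 6 arrays lay from 4.25 to 4.58. The count of circRNA probes well above background was largest on HFD+Abx 1 (13478 of 14236) and smallest on HFD+Abx 3 (12544). HFD+Abx 2 (13078) lay below HFD 2 (13147), so this number followed the pattern less closely. CTR 3, with 13476 probes and a ratio of 4.58, nearly equalled HFD+Abx 1 on both measures, although the pattern was at -0.28 there. The part of either measure in the pattern was not tested. The median level of the 200 probes was 2.57 on HFD+Abx 1, 1.33 on HFD 2 and 1.09 on HFD+Abx 3, and 1.44 to 1.93 on the other arrays.

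Neither group nor slide accounted for most of the variation. The share of a probe's sum of squares that lies between the 3 group means had a median of 24.4% over the 200 probes and 27.8% over the 13556 circRNA probes tested, where values unrelated to the groups average 25%. Without HFD+Abx 3 the median of the 200 was 37.3%, where unrelated values on 8 arrays average 28.6%. The share between the slides had a median of 8.84%, against 19.0% over all probes tested, and unrelated values average 12.5%. The share between position columns had a median of 15.9%, against 12.4% over all, and unrelated values average 12.5%. Such shares are skewed, so the median of unrelated values lies below their average. The medians given are therefore not read as above or below what unrelated values would give. By pattern, the group share had a median of 18.2% in the pattern of 114, 39.9% in that of 65, 41.2% in that of 14 and 26.6% in that of 7. The slide share was 32.1% and the column share 41.4% in the pattern of 65, and 4.10% and 7.63% in that of 114. For the 65 probes group, slide and column thus overlap, and cannot be told apart. The arrays of a single group stood outside those of both other groups for 4 probes with CTR (2.0%, all lower, against 2.99% of all probes, 0.893% lower). This held for 2 probes with HFD+Abx (1 higher and 1 lower, against 4.34%, of which 1.67% higher and 2.67% lower) and for 1 with HFD (higher, against 1.96%, of which 1.47% higher and 0.494% lower).

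The spread inside groups was wide. The 3 arrays of a group spanned 2.11-fold in CTR, 2.31-fold in HFD and 2.55-fold in HFD+Abx at the median over the 200 probes. HFD+Abx 1 and HFD+Abx 3 differed by at least 2-fold for 116 probes, and 96 of these were higher on HFD+Abx 1. HFD+Abx 1 held over 50% of the sum of squares for 37 of the 47 probes in which any array did.

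The first component of the 200 profiles held 47.2% of their variance. Its scores were 14.8 on HFD+Abx 1, 6.94 on HFD+Abx 2 and 6.73 on HFD 3 at one end and -8.89 on HFD 2, -7.42 on CTR 1 and -5.11 on HFD+Abx 3 at the other, and 0.44% of its variance lay between slides, 19.0% between columns and 29.3% between groups. The second held 28.8%, and 47.0% of its variance lay between slides, 33.4% between columns and 21.2% between groups. It had HFD+Abx 3 (7.94) and HFD+Abx 2 (6.93) of slide 2 at one end beside CTR 2 (4.85) and HFD 2 (4.02), and CTR 3 (-7.36), CTR 1 (-6.40), HFD 1 (-6.08) and HFD+Abx 1 (-4.39) at the other. Between arrays, deviations over the 200 probes correlated at a mean of -0.074 for the 9 pairs of the same group and -0.14 for the 27 pairs of different groups, where 9 arrays centred on their mean average below 0. For 8 of the 9 arrays the closest array belonged to another group, as most possible partners do, and for 8 of the 9 it lay in the same position column. Some of these closest pairs are mutual, so the counts are not of independent pairs. The mean correlation was 0.019 over the 16 pairs of the same column and -0.23 over the 20 pairs of different columns. HFD 1 and CTR 3 (r = 0.73), HFD 1 and CTR 1 (r = 0.70), and HFD+Abx 1 and HFD 3 (r = 0.53) were close, whereas HFD+Abx 2 and HFD+Abx 3, the arrays of slide 2, correlated at 0.17.

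HFD was first compared with CTR, whose diet the labels do not give. None of the 200 passed an adjusted p under 0.05 in limma, fitted over all 13555 circRNA probes, of which 0.00% were called (smallest adjusted p among the 200 = 0.9995). A limma p under 0.05 before adjustment, joined to a difference of 1.5-fold or more, was met by 12 of the 200 (6.0%), 8 higher and 4 lower in HFD. Of all probes 1.81% met it, 1.55% higher and 0.258% lower, and 3.72% had such a p at any fold. Probes chosen for a large SD meet a fold limit more readily, and limma draws their variance towards that of all probes, so nothing is read from the larger share. Arrays of the groups did not overlap for 8 of the 200 (4.0%, 6 higher and 2 lower), against 9.41% of all probes (4.73% higher and 4.68% lower), a count that rests on the order of the arrays and not on the size of the difference. Of the 8 higher probes, 7 belonged to the pattern of 14. The largest positive difference was that of ASCRP4010398, which read 0.85, 0.80 and 1.28 in CTR and 1.48, 2.71 and 2.79 in HFD, with 1.35 (SE 0.31, limma adjusted p = 0.999). HFD 1 lay only just above CTR 3, and with position column as a block, which leaves HFD 1 alone against CTR, the difference was 0.50 (SE 0.26). ASCRP4010223 was alike, at -0.01, -0.13 and 0.39 in CTR and 0.56, 1.99 and 1.61 in HFD. The largest negative differences were -1.30 (SE 0.70) for ASCRP4005614 and -1.07 (SE 0.62) for ASCRP4012292, fitted on 8 and 7 arrays because spots flagged by the scanner software were left out. Both had 95% intervals that included 0. The 12 became 36 without CTR 2 (7 higher, 29 lower), 7 without CTR 1, 6 without HFD 2 and 2 with position column as a block, so without CTR 2 the majority was lower, not higher.

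HFD+Abx was then compared with HFD, a group whose label differs from it by Abx. No probe of the 200 passed in limma (0.00% of 13556 called, smallest adjusted p = 0.50). The unadjusted criterion was met by 24 (12.0%), 7 higher and 17 lower in HFD+Abx, against 4.51% of all probes (1.16% higher and 3.36% lower, and 9.49% at any fold). Of the 17 lower probes 13 belonged to the pattern of 65. Arrays did not overlap for 17 of the 200 (8.5%, 4 higher and 13 lower), against 12.8% of all (5.28% higher and 7.52% lower). ASCRP4009949 had the largest positive difference, from 2.25, 2.44 and 3.09 in HFD to 3.30, 4.47 and 3.81 in HFD+Abx, with 1.27 (SE 0.44, limma adjusted p = 0.50). ASCRP4003652 followed with 2.25, 2.55 and 3.23 in HFD and 3.50, 4.53 and 3.47 in HFD+Abx. The groups did not overlap for either probe, but CTR 2 read 3.53 and 3.74, within the HFD+Abx values. ASCRP4008179 had the largest negative difference, -1.71 (SE 0.70, limma adjusted p = 0.51), and ASCRP4000169 followed with -1.61 (SE 0.73). With slide as a block, which sets HFD+Abx 1 alone against the HFD arrays, 59 probes met the criterion, 58 of them higher, so the direction turned. Without HFD+Abx 3 there were 49 (41 higher and 8 lower), without CTR 2 47 and without HFD 3 38. Without HFD 1, HFD 2 or HFD+Abx 2 there were 14, 15 and 12.

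The comparison of HFD+Abx with CTR gave no call either (0.00% of 13555 probes, smallest adjusted p among the 200 = 0.37 in limma). The unadjusted criterion was met by 55 (27.5%), 12 higher and 43 lower in HFD+Abx, against 6.23% of all probes (1.61% higher and 4.63% lower, and 12.6% at any fold). Of the 43, 36 belonged to the pattern of 65. Arrays did not overlap for 29 of the 200 (14.5%, 9 higher and 20 lower), close to the 15.4% of all probes (4.95% higher and 10.4% lower). ASCRP4005906 had the largest positive difference, with 0.73, 0.71 and 1.11 in CTR and 1.46, 2.68 and 2.73 in HFD+Abx, or 1.44 (SE 0.33, limma adjusted p = 0.37). HFD+Abx 1 lay nearer to CTR than the arrays of slide 2 did, and with slide as a block the difference was 0.61 (SE 0.30). ASCRP4008179 (-2.17, SE 0.70) and ASCRP4000169 (-2.12, SE 0.73) had the largest negative differences, with CTR 2 at -0.49 and 2.96 inside the range of their HFD+Abx arrays. With slide as a block 60 probes met the criterion, 55 higher and 5 lower, so the direction turned here too, and ASCRP4012806 passed (difference 1.91, SE 0.21, limma adjusted p = 0.044). This probe, named because it passed, read 2.71 on HFD+Abx 1 and 0.70 to 1.01 on the other 8 arrays, so its call is that of a single array. Of all 13555 probes 4 passed in that fit. Without HFD+Abx 1, 32 of all probes passed. Among them ASCRP4005906 (1.86, SE 0.24) and ASCRP4011864 (-1.64, SE 0.22) were the members, each with a limma adjusted p of 0.037, the latter again named because it passed. HFD+Abx is then on slide 2 only, and group and slide cannot be told apart. Without HFD+Abx 3 there were 83 (54 higher and 29 lower), without CTR 1 27, and with position column as a block 8 (1 higher and 7 lower). All CTR arrays lie in column 1 and all HFD+Abx arrays in column 2, so that fit links them only through the HFD arrays. It is less precise for this comparison, with an SE of 1.25 in place of 0.70 for ASCRP4008179, and the cause of the lower count was not tested. The comparisons share their groups, so their counts are not independent of each other.

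Over the 3 groups together, limma's F test called none of the 200 (0.00% of 13555, smallest adjusted p = 0.56). Before adjustment 37 (18.5%) had a p under 0.05 in that test, against 8.93% of all probes. The 37 became 66 without CTR 2, 24 without CTR 1, 19 without HFD+Abx 2 and 11 with position column as a block. The arrays of slide 2 lay outside the range of the 7 arrays of slide 1 for 29 of the 200 (14.5%), against 21.3% of all probes (8.34% higher and 13% lower). Of the 29, 27 were lower and 2 higher on slide 2. The 4 arrays of position column 1 did not overlap with the 5 of column 2 for 7 probes (3.5%, 3 higher and 4 lower in column 2), against 3.38% of all (0.811% higher and 2.57% lower).

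Readouts that the rule did not use gave few differences from the 2500 probes of the same ranks. The median row and column on the grid were 93 and 39 for the 200 and 94 and 41 for the others, and the local background was 12 for both. On the array where a probe lay farthest from its own median, the probe deviated by 1.24 at the median and its adjacent spots, members left out, by 0.010 in the same direction, with 107 of 200 on the same side. Only 14 of the 200 had another of the 200 as an adjacent spot.

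Scanner flags did differ. Of the 1800 spots of the 200 probes, 26 carried an outlier flag (1.44%), against 0.080% of all circRNA spots, and 11 of the 200 (5.5%) had at least 1 such spot against 0.88% of the probes not chosen. ASCRP4001365 read 5.21 on HFD 2, where its spot was flagged, and 1.67 to 2.01 on the other 8 arrays, so its SD of 1.13 became 0.12 without that spot. With flagged spots left out before the choice, 197 of the 200 were chosen again. ASCRP4001365, ASCRP4013462 (SD 0.72 to 0.56) and ASCRP4002975 (SD 0.64 to 0.48) were the 3 not chosen. The limit was then 0.55, and ASCRP4013462 had left the ranks by its mean level. Of the 11 probes with a flagged spot, the 3 not chosen again and ASCRP4011315 (SD 0.65 to 0.56) had a lower SD without flagged spots. The SD of the others was higher without them. These probes were named after their flags were seen.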

How the data were processed

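One-colour scanner tables of 9 arrays were used. Per the file headers, the authors deposited the spot intensity that Agilent Feature Extraction 11.0.1.1 wrote, background-corrected by that software and not normalised between arrays. The authors' deposited table of log2 values for 14218 circRNA probes was an alternative only. It followed the log2 median signal (r from 0.998 to 1.00 across probes), its columns share 1 maximum and have medians of 5.80 to 5.82, and its normalisation is unknown here beyond limma in the submitters' processing notes.

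The members, lists and tests were chosen with earlier results of these data known. Levels were log2 processed signal less the 75th percentile of all circRNA probes on that array. The choice of members used all spots, and the fits left out spots flagged as outliers. Probes well above background on at least 3 arrays were fitted with lmFit and eBayes (limma 3.58.1, R 4.3.3), 3 group means, no covariate, Benjamini-Hochberg over all of them. The code was tested on simulated data. Probes named were the 5 with the largest SD, the 2 closest to each pattern's mean, those at the edge of the choice, and the 2 largest positive and negative differences of each comparison, besides those said to be chosen after seeing values. Alternatives were quantile normalisation, equal medians, normexp with offset 50 (on the median signal, as the files hold no mean signal), no filter, flagged spots kept, replicate number, slide or position column as a block, slide 1 alone, each array left out, and the authors' table. The number of arrays limits the precision.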

Additional observations from a re-analysis of the deposited data

How the results depend on the processing

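Of the 200 probes, 166 to 193 were chosen again with 1 array left out, the fewest without HFD+Abx 1 and without HFD+Abx 3, and 171 to 197 under the other scalings, the authors' deposited table and the removal of flagged spots. Under those scalings each pattern's mean correlated with its main course at 0.97 or more, and signs changed only for CTR 2 in the pattern of 114 (0.0085) and HFD+Abx 2 in the pattern of 14 (0.017). With 3 or 5 clusters in place of 4 the largest pattern again held 114, but with 3 the pattern of 7 joined that of 65, and with 5 the pattern of 14 split into 7 and 7. The median group share was 23.4% to 25.3% under the alternatives with all arrays, where unrelated values average 25%. It was 25.9% on slide 1 alone (average 33.3%) and 21.4% to 37.3% with 1 array left out (average 28.6%). As above, these medians are not read against the averages. The first component held 47.1% to 55.2% with all arrays or slide 1 alone and 44.7% to 52.7% with 1 array left out.

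The counts at an unadjusted p depended on single arrays, and the cause was not tested. With 1 array left out they ranged from 6 to 36 for HFD vs CTR, 12 to 49 for HFD+Abx vs HFD, 27 to 83 for HFD+Abx vs CTR and 19 to 66 for the F test. With position column as a block they were 2, 16, 8 and 11, in a fit where only HFD holds arrays in both columns. With slide as a block HFD+Abx vs HFD gave 59, on slide 1 alone 60, and with normexp 13. Calls at an adjusted p stayed at 0 in the alternatives run, except for HFD+Abx vs CTR, with 1 with slide as a block and 0 to 2 with 1 array left out. Same-numbered arrays did not deviate together: 3 of 9 such pairs correlated above 0.1 over 13494 probes (-0.37 to 0.39), and 3 of 9 arrays correlated best with their own number. With the replicate block the counts were 13, 33, 59 and 47, with 0 calls among the 200. All 200 probes were well above background on all arrays, and the part of background in these values was not tested.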
